A study of Mus musculus with 12 samples.

Results

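The genes described here act in DNA replication and cell division. They were chosen by name as replication and mitosis genes of dividing progenitors in the neonatal brain, and 36 were named. Of these, 35 were among the 17550 gene symbols of the exon array table. The expression of Rrm2 was not analysed here, and this gene enters only the counts of promoter windows. They were measured in whole brains of newborn female mice, 6 wildtype (KIS +/+) and 6 KIS-ko (KIS -/-), with 1 brain of each genotype from each of 6 litters. Uhmk1 is the gene of KIS, a serine/threonine kinase that also carries a U2AF homology motif, a fold that binds splicing factors. The study asked whether its loss alters gene expression in the neonate brain, and the mice had been backcrossed to C57BL6/N. No promoter or cell type that would restrict the deletion is named, and the 2 genotypes differ in this allele alone by their labels.

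A dividing cell first loads the MCM helicase onto replication origins, then copies its DNA in S phase, and finally condenses and separates its chromosomes in mitosis. E2F factors drive transcription of many S phase genes, whereas the genes needed for mitosis are induced later, largely through promoter elements called CHR and CCAAT boxes. In the newborn mouse brain, divisions take place mostly in the progenitors of the ventricular zones and in the granule cell precursors of the cerebellum, while neurons no longer divide. In a whole brain, fewer dividing cells and less RNA per dividing cell cannot be told apart.

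Promoters are shown for 4 members, chosen because Mcm6 and Top2a varied with Rrm1 and Tyms from brain to brain, and Ccnf and Cdc20 with each other and with Plk1. RefSeq windows of 300 bases (GRCm38.p6), from 250 bases before the transcript start to 50 after it, covered 27 of the 36 genes named. The 250 bases before the start are printed 5′ to 3′ along the gene, and capitals mark matches on either strand to an E2F site (TTTCCCGC or TTTGGCGC), a CHR (TTTGAA or TTCGAA) or a CCAAT box (CCAAT).
Mcm6, chr1:128359706-128359955, minus strand: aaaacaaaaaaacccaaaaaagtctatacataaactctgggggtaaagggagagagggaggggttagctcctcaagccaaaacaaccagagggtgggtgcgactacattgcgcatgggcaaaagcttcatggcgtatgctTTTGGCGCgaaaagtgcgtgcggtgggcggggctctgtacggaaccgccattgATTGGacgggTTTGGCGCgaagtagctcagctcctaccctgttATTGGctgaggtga
Top2a, chr11:99024190-99024439, minus strand: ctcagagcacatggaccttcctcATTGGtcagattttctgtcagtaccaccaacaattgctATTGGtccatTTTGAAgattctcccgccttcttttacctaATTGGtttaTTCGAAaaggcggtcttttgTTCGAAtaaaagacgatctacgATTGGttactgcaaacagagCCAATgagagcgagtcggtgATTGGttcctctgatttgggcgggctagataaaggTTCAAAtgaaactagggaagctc
Ccnf, chr17:24251410-24251659, minus strand: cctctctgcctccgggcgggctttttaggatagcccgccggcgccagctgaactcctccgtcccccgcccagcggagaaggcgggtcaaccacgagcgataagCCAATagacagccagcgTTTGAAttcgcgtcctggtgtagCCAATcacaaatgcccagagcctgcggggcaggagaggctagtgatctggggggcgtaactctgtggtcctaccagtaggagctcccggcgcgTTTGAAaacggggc
Cdc20, chr4:118437344-118437593, minus strand: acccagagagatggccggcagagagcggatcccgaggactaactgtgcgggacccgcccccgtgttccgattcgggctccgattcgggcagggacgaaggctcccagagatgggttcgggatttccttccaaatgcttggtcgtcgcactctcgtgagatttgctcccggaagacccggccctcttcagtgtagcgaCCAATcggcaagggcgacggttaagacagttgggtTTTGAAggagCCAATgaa
Of 11 windows of licensing, DNA synthesis and G1/S genes, 4 (36.4%) held the E2F letters, in Mcm3, Mcm5, Mcm6 and Mcm7, against 0 of 16 windows of the mitotic genes and 1.63% of 27025 windows of all genes. The CHR letters were in 12 of the 16 mitotic windows (75.0%), in 2 of the 11 others (18.2%) and in 19.4% of all genes. CCAAT was in 21 of the 27 member windows (77.8%) and in 37.9% of all. No motif contains another, and a match is a description of the window only.

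On these arrays, the probes of 1 exon or exon part form a probeset. The 35 genes had 597 main probesets, of which 576 were kept after 21 (3.52%, against 7.20% of all probesets) had been rejected because replicates of a genotype scattered too widely (relative standard deviation over 0.4). The table marks 78.6% of the probesets kept as matching 1 place in the genome (cross-hybridization type 1), against 84.9% of all. Among these genes, Pcna had no probeset of type 1, Ccnb1 had 1 of 11, Ccnf 2 of 18 and Mcm7 4 of 18. In 27.8% the mean signal exceeded 713, the 95th percentile of control probesets placed in introns, against 44.6% of all probesets, so that many of these exons were dim. In 92.9% it exceeded 114, the median of these controls, against 87.7% of all probesets. Here the value of a gene is log2(signal + 16) averaged over its probesets, and a difference is KIS-ko minus wildtype on this scale. Array medians ranged from 478 to 546. Uhmk1, the deleted gene, was at 8.62 to 8.98 in the KIS-ko brains and at 10.89 to 11.07 in the wildtype brains, and the genotypes did not overlap.

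In the KIS-ko brains, 32 of the 35 cell cycle genes had a lower mean value than in their wildtype littermates, by small amounts. Genes at large leaned the same way, with 69.8% of the 17279 genes tested lower. The median difference was -0.08 for the members and -0.04 for all genes. Ccnd2 (0.05), Foxm1 (0.03) and Birc5 (0.01) were the members with a higher mean. The limma fit with the litter as a block put 4 members at an unadjusted p under 0.05, all lower, namely Ccnf, Plk1, Kif23 and Ccne2. The share of all genes called lower in this way was 4.34%, and 1.82% were called higher. After Benjamini-Hochberg adjustment over all genes, 0 members passed (lowest adjusted p = 0.685 in limma) and only Uhmk1 did among all genes tested (0.00579%). Values of wildtype and KIS-ko brains overlapped in every member, and 0.122% of all genes had each KIS-ko brain below each wildtype brain.

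In litter 4 the direction was opposite to that of the other 5 litters. Between littermates, 30, 31, 23, 1, 27 and 33 of the 35 genes were lower in the KIS-ko brain in litters 1 to 6, against 64.6%, 69.1%, 49.0%, 30.3%, 66.1% and 70.4% of all genes. E2f1 was the only member lower in litter 4. Median differences of the members were -0.11, -0.17, -0.06, 0.17, -0.09 and -0.23 in litters 1 to 6, and those of all genes -0.05, -0.09, 0.00, 0.07, -0.05 and -0.11. In litter 4 the wildtype brain was low, with 7 of 35 members at their lowest value of all 12 brains, against 8.19% of all genes. The KIS-ko brain of that litter was above the gene means for 24 of 35 members. This was near the share of all genes, 64.5%. Without litter 4, 18 members were called lower at an unadjusted p under 0.05 by limma and 0 higher, while 19.4% of all genes were called lower and 3.81% higher. No member passed the adjusted threshold then either, and Ccnb1 and Ccnf both had an adjusted p of 0.0994 in that limma fit. Leaving out litter 1 or litter 6 left 1 member called, Ccnf, where 2.42% and 1.96% of all genes were called lower. Leaving out litter 2 left Ccnf and Plk1 (2.32% of all genes), and leaving out litter 3 left Ccnf and Ccne2 (3.24%).

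**Figure D1:**
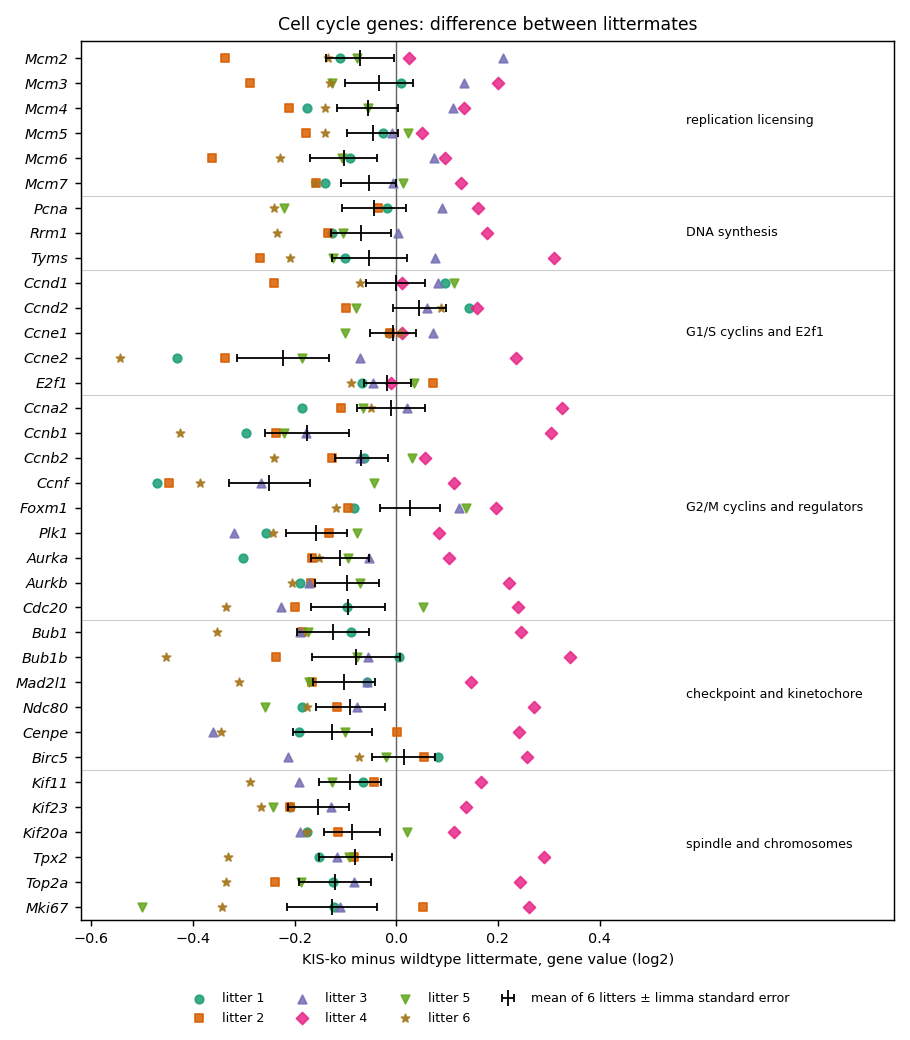
Difference between the KIS-ko brain and its wildtype littermate (x axis, log2) for each of 35 cell cycle genes (rows, grouped by role). Symbols are the 6 litters, and the bar gives the mean with the standard error of limma. In litter 4 the symbols of all members but E2f1 lie to the right of 0, while most others lie to the left.

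The level of the arrays moved in the same litters. The median signal was lower in the KIS-ko array in litters 1, 2, 3, 5 and 6 and higher in litter 4, where it was 538 against 502. With each array centred on its median, the median difference was -0.03 for the members and 0.02 for all genes, and 23 of the 35 members were lower, against 38.7% of all genes. After a further quantile normalization, the medians were -0.03 and 0.00, and 27 members were lower, against 48.3%. The distance between the member median and the median of all genes was -0.05 as deposited, -0.05 after centring and -0.04 after quantile normalization. At an unadjusted p under 0.05, 3 members were called lower after centring (Ccne2, Ccnf and Kif23) and 4 after quantile normalization, where limma called 1.85% and 2.43% of all genes lower.

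The measure of the study's methods, in which a gene's fold change is the mean of its probesets' KIS-ko over wildtype ratios weighted by their regularity, put 7 members at least 6% lower and 0 at least 6% higher. Of all genes, 8.84% were lower and 17.5% higher by this measure. The 7 were Ccne2, Ccnb1, Ccnf, Plk1, Bub1, Kif23 and Mki67. Over the members, the fold change ran from 0.857 to 1.04 with a median of 0.970, and the median of all genes was 0.993. No test belongs to this measure.

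The licensing genes Mcm2 to Mcm7, the 6 subunits of the replicative helicase, were all lower on average, by a median of -0.06 (from -0.10 in Mcm6 to -0.03 in Mcm3), and 0 of 6 reached an unadjusted p under 0.05. After centring of the arrays, Mcm3, Mcm5 and Mcm7 lay at 0.02, 0.01 and 0.00 (above 0) and the other 3 stayed below 0. Gene values of Mcm6 were 8.87 (lowest), 9.16 (median) and 9.24 (highest) in wildtype brains and 8.78, 8.96 and 9.20 in KIS-ko brains. From litter 1 to litter 6 its differences were -0.09, -0.36, 0.07, 0.10, -0.11 and -0.23, and the genotypes overlapped. The median over the 6 genes was lowest in litter 2, at -0.25, and it was above 0 in litters 3 (0.09) and 4 (0.11).

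Pcna, the sliding clamp of the DNA polymerases, Rrm1, the large subunit of ribonucleotide reductase, and Tyms, which makes thymidylate, had differences of -0.04 ± 0.06, -0.07 ± 0.06 and -0.05 ± 0.07 (limma standard error), and none reached an unadjusted p under 0.05. Each was lower in 4 of 6 litters. With the median over probesets, Pcna had 0.06 and Tyms 0.01. Gene values of Tyms were 8.30 (lowest), 8.66 (median) and 8.82 (highest) in wildtype brains and 8.17, 8.57 and 8.72 in KIS-ko brains. Its lowest brain was the KIS-ko brain of litter 5 and its next lowest the wildtype littermate, so that both brains of that litter lay at the low end. For Pcna, 5 of 15 probesets lie on another chromosome than the others and had a mean difference of 0.00, and without them its call was the same.

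Among the G1/S genes, Ccne2, a cyclin E that activates CDK2 at the entry to S phase, was the one called at an unadjusted p under 0.05. Gene values of Ccne2 were 7.94 (lowest), 8.37 (median) and 8.47 (highest) in wildtype brains and 7.91, 8.07 and 8.23 in KIS-ko brains. In litters 1 to 6 its differences were -0.43, -0.34, -0.07, 0.24, -0.19 and -0.54, and the wildtype brain of litter 4 was the lowest of its genotype. The mean difference was -0.22 ± 0.09 (adjusted p = 0.685 in limma, unadjusted p under 0.05), and all 9 of its probesets were lower. By the methods' measure the fold change was 0.906 ± 0.143 (SD over the litters). With the median over probesets it was not called. Its paralog Ccne1 had a difference of -0.01 ± 0.05 (0.04 after centring), with 7 of 15 probesets lower.

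Differences of the D cyclins, which couple mitogen signals to CDK4 and CDK6, did not reach an unadjusted p under 0.05. For Ccnd1 the difference was 0.00 ± 0.06 and the litters gave 0.10, -0.24, 0.08, 0.01, 0.11 and -0.07. Its sign turned under other settings, with 0.06 after centring and 0.04 after quantile normalization, and with the median over probesets it was -0.08. All 7 probesets of Ccnd2 were higher, with a mean of 0.05 ± 0.05 and an unadjusted p of 0.41 in limma, and after centring it was 0.10. E2f1, the transcription factor of S phase genes, had a difference of -0.02 ± 0.05, which turned to 0.04 after centring.

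Ccnf, the F-box cyclin of the SCF ubiquitin ligase that peaks in G2, had the lowest mean difference of the 35 genes. Gene values of Ccnf were 8.53 (lowest), 8.72 (median) and 8.82 (highest) in wildtype brains and 8.26, 8.41 and 8.72 in KIS-ko brains. In litters 1 to 6 its differences were -0.47, -0.45, -0.27, 0.11, -0.04 and -0.39, so that 5 of 6 KIS-ko brains were below their littermates. The mean was -0.25 ± 0.08 (adjusted p = 0.685 in limma, with the lowest unadjusted p of all members), and the fold change by the methods' measure was 0.857 ± 0.132. However, only 2 of its 18 probesets match 1 place in the genome.

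The 16 Ccnf probesets open to cross-hybridization were all lower, between -0.36 and -0.12 with a mean of -0.27, and 10 of them reached an unadjusted p under 0.05 in the limma fit over probesets. The 2 probesets of type 1, with mean signals of 177 and 213, had differences of 0.05 and -0.20. With type 1 probesets alone, the gene's difference was -0.07 ± 0.07 and its unadjusted limma p rose to 0.299, so that the call was lost. Per litter, the type 1 probesets averaged -0.07, 0.00, -0.16, 0.19, -0.05 and -0.36, and the others -0.52, -0.50, -0.28, 0.10, -0.04 and -0.39. The 2 kinds differed most in litters 1 and 2 and by at most 0.12 in the other litters. The mean of this distance was -0.20 ± 0.22 (SD, n = 6), with p = 0.0625 in the exact two-sided sign-flip permutation test, whose smallest possible p is 0.0312. After Benjamini-Hochberg adjustment over the 3 genes compared in this way (Ccnf, Ccnb1 and Plk1), the exact p was 0.188 for Ccnf, 0.656 for Ccnb1 and 0.719 for Plk1. These 3 were chosen after the values had been seen. The adjustment does not cover Ndc80 and Cdc20, whose type 1 probesets were the lower kind (-0.20 against 0.01 and -0.20 against -0.04).

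**Figure D2:**
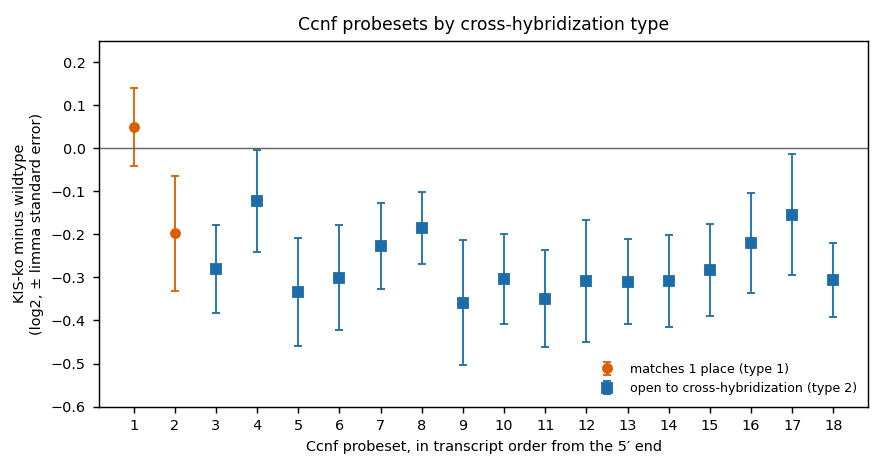
Difference between genotypes (y axis, log2, mean of 6 litters with the limma standard error) for the 18 Ccnf probesets, in transcript order from the 5′ end (x axis). Colors separate the 2 probesets of type 1 from the 16 open to cross-hybridization. All 16 of the latter lie below 0, and the 2 of type 1, both at the 5′ end, lie at 0.05 and -0.20.

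Plk1, the polo-like kinase that drives entry into and passage through mitosis, was next among the G2/M regulators by its p. Gene values of Plk1 were 9.37 (lowest), 9.46 (median) and 9.50 (highest) in wildtype brains and 9.05, 9.29 and 9.46 in KIS-ko brains. Its differences in litters 1 to 6 were -0.26, -0.13, -0.32, 0.08, -0.08 and -0.24. The wildtype brains spanned a narrow range, and 4 of 6 KIS-ko brains lay below it. The mean difference was -0.16 ± 0.06 (adjusted p = 0.685 in limma, unadjusted p under 0.05) and 12 of 14 probesets were lower. Type 1 probesets alone averaged -0.15 and the others -0.17.

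Ccnb1, the cyclin of the mitotic CDK1 kinase, came close to the same threshold. Gene values of Ccnb1 were 8.60 (lowest), 8.83 (median) and 8.98 (highest) in wildtype brains and 8.52, 8.60 and 8.91 in KIS-ko brains. Its litters gave -0.30, -0.24, -0.18, 0.30, -0.22 and -0.43. The mean difference was -0.18 ± 0.08 (adjusted p = 0.685 in limma, unadjusted p above 0.05), all 11 probesets were lower and the fold change by the methods' measure was 0.910 ± 0.145. Of these probesets, 10 are open to cross-hybridization (mean -0.19) and the 1 of type 1 was at -0.05. Ccnb1 was called at an unadjusted p under 0.05 with a pseudocount of 64, no litter block, a trended and robust moderation, the median over probesets, or litter 4 left out.

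The other 6 G2/M regulators had smaller differences, and none of them reached an unadjusted p under 0.05. The kinases Aurka and Aurkb, which act at the spindle poles and on the chromosomes, had -0.11 ± 0.06 and -0.10 ± 0.06, and 12 of 12 and 12 of 13 of their probesets were lower. With the median over probesets, Aurka had -0.18 and Aurkb -0.01. Cdc20, the activator of the anaphase-promoting complex, had -0.09 ± 0.07. Its 3 type 1 probesets averaged -0.20 and its 6 others -0.04, the gene had -0.17 without the filter on relative standard deviation, and without litter 6 it had -0.02. Cyclin Ccnb2 had -0.07 ± 0.05, and -0.01 both after centring and with the median over probesets. Cyclin Ccna2 had -0.01 ± 0.07, which turned to 0.05 after centring, 0.03 after quantile normalization and 0.02 without litter 1. Foxm1, a transcription factor of G2/M genes, had 0.03 ± 0.06 with 5 of 13 probesets lower, and -0.06 with the median over probesets.

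Of the 6 checkpoint and kinetochore genes, 5 were lower and 0 reached an unadjusted p under 0.05. Bub1, a kinase of the spindle checkpoint, was the one past 6% by the methods' measure (0.937 ± 0.124), with differences of -0.09, -0.19, -0.19, 0.25, -0.17 and -0.35 in litters 1 to 6 and a mean of -0.12 ± 0.07. Gene values of Bub1 were 7.90 (lowest), 8.14 (median) and 8.21 (highest) in wildtype brains and 7.75, 7.95 and 8.14 in KIS-ko brains. Cenpe, the kinetochore motor, had -0.13 ± 0.08 with 38 of 44 probesets lower, and the checkpoint protein Mad2l1 had -0.10 ± 0.06. Ndc80, of the complex that binds microtubules, had -0.09 ± 0.07 over all probesets, and its 6 type 1 probesets averaged -0.20 against 0.01 for the 7 others, so that with type 1 probesets alone its unadjusted limma p was 0.0346. Bub1b, a checkpoint kinase-like protein, had -0.08 ± 0.09, but 0.01 without litter 6 and -0.01 with the median over probesets. Birc5 (survivin), a subunit of the chromosomal passenger complex, had 0.01 ± 0.06, but -0.03 without litter 4.

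All 6 genes of the spindle and chromosomes had a lower mean, with a median of -0.11. Kif23, a motor of the central spindle needed for cytokinesis, was the one called. Gene values of Kif23 were 8.41 (lowest), 8.53 (median) and 8.64 (highest) in wildtype brains and 8.27, 8.36 and 8.56 in KIS-ko brains. Its litters gave -0.21, -0.21, -0.13, 0.14, -0.24 and -0.27, the mean was -0.15 ± 0.06 (adjusted p = 0.685 in limma, unadjusted p under 0.05) and all 14 probesets are of type 1, of which 12 were lower. It was not called without dim probesets, with a relative standard deviation limit of 0.2 or none, or with the median over probesets. Nor was it called with any 1 of litters 1, 2, 3, 5 and 6 left out. Kif11, Kif20a and Tpx2, which build and organize the spindle, had -0.09 ± 0.06, -0.09 ± 0.06 and -0.08 ± 0.07.

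Top2a, the topoisomerase that untangles replicated chromosomes, was lower in 33 of 36 probesets. Gene values of Top2a were 8.76 (lowest), 9.07 (median) and 9.18 (highest) in wildtype brains and 8.59, 8.91 and 9.05 in KIS-ko brains. Its litters gave -0.12, -0.24, -0.08, 0.24, -0.19 and -0.34 and the mean was -0.12 ± 0.07 (adjusted p = 0.685 in limma). Mki67, which encodes the proliferation antigen Ki-67, was lower in all 5 of its probesets, of which 3 had a mean signal above the median intron control of 114. Gene values of Mki67 were 7.06 (lowest), 7.52 (median) and 7.58 (highest) in wildtype brains and 7.07, 7.36 and 7.48 in KIS-ko brains. The litters of Mki67 gave -0.12, 0.05, -0.11, 0.26, -0.50 and -0.34, with a mean of -0.13 ± 0.09 and a fold change of 0.934 ± 0.153 by the methods' measure. The difference of Mki67 was -0.01 with the median over probesets, -0.05 without dim probesets, -0.05 without litter 5 and -0.20 without litter 4.

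At the level of single probesets, 446 of the 576 (77.4%) were lower in KIS-ko brains. The same share over all probesets is not given here, and 69.8% of all genes had a lower mean. The limma fit over 205469 probesets put 48 at an unadjusted p under 0.05 with a lower value (8.33%) and 3 with a higher value, where 4.72% and 1.91% of all probesets were called. None of the 576 passed the adjusted threshold (lowest adjusted p = 0.641 in limma), as 0.00487% of all probesets did. Of the 48, 10 belong to Ccnf and are open to cross-hybridization.

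The roles did not move together in every litter. In litter 3 the licensing and DNA synthesis genes were higher in the KIS-ko brain, with medians of 0.09 and 0.08, while the G2/M regulators, the checkpoint genes and the spindle genes were lower, with medians of -0.17, -0.13 and -0.12. All 12 of the checkpoint and spindle genes were lower in that litter, against 2 of 6 licensing genes and 0 of 3 DNA synthesis genes. The median of all genes was 0.00 there. In litter 2 the licensing genes had the lowest median of the 6 roles, at -0.25, and the spindle genes had -0.10. In litter 4 all roles had medians above 0, from 0.01 for the G1/S genes to 0.25 for the checkpoint genes.

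**Figure D3:**
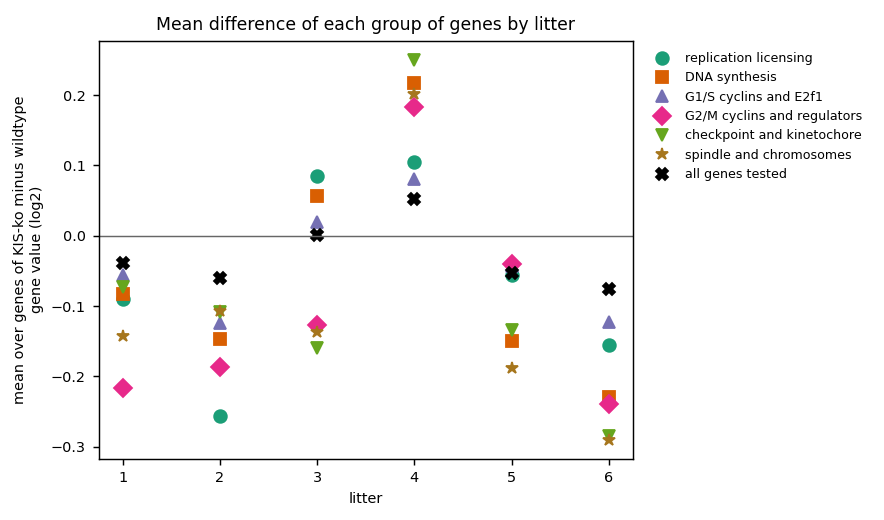
Mean over genes of the difference between littermates (y axis, log2) in each litter (x axis), for the 6 roles and for all genes tested. Litter 4 lies above 0 for every role, and in litter 3 licensing and DNA synthesis lie above 0 while the 3 mitotic roles lie below -0.1.

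From brain to brain, the members varied together. After the genotype means had been removed, the median Pearson r over the 595 pairs of members was 0.519 across the 12 arrays, and 89.1% of pairs were positive. Over pairs of all genes the median was 0.0890, with 57.1% positive. The arrays share the litters and their own overall level. With arrays centred on their medians, the member median was 0.186 and that of all genes 0.0462, and after a further quantile normalization they were 0.218 and 0.00358. Among the 6 wildtype arrays alone the member median was 0.724, and among the 6 KIS-ko arrays 0.354. The differences within litters gave 0.663 over the 6 litters, against 0.186 for all genes. These values are descriptions, since genes of 1 array are not independent.

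The brains of each litter and genotype differed in how many members were high, and genes at large leaned the same way. In the wildtype brain of litter 1, 34 of 35 members were above their own mean, against 73.7% of all genes. There 17 members had their highest value of all brains, against 16% of all genes. In the wildtype brain of litter 6, 33 members were above their mean, against 69.7% of all genes. These 2 arrays had the highest median signals, 545 and 546. The KIS-ko brain of litter 5 held the lowest value of 12 members, among them Tyms and Top2a, against 22.6% of all genes, and had the lowest median signal, 478. In the wildtype brain of litter 4, only 2 members were above their mean, against 40.0% of all genes.

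**Figure D4:**
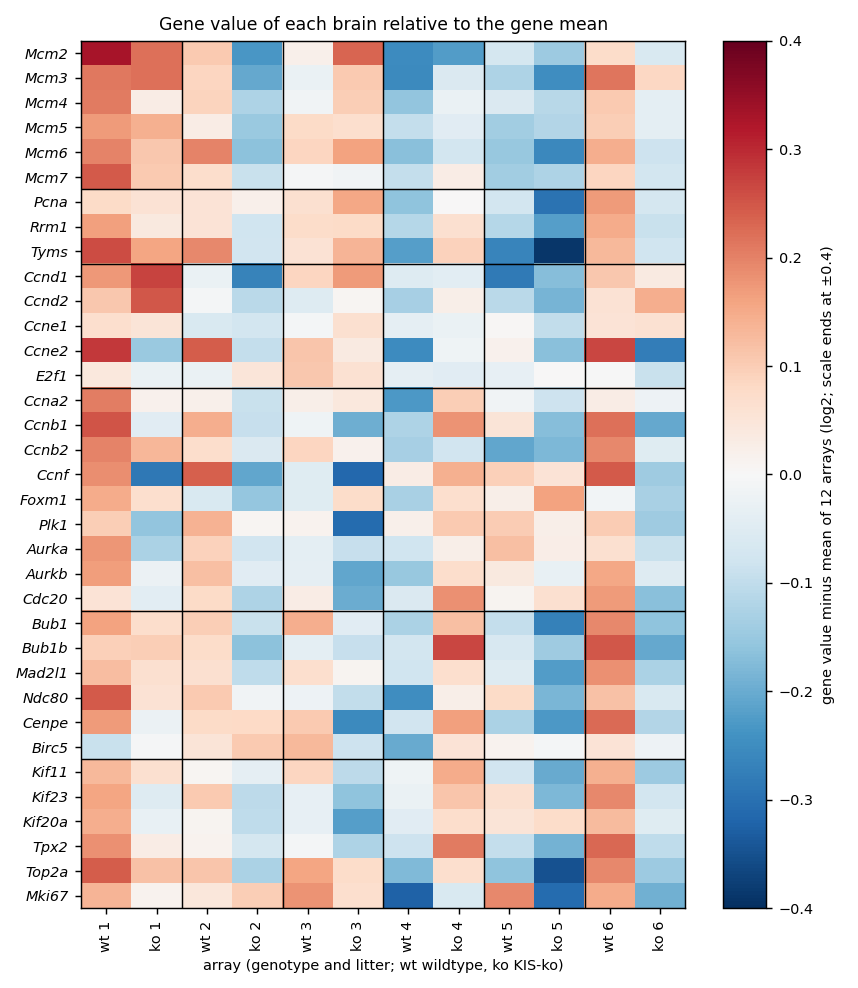
Gene value of each of 35 cell cycle genes (rows, grouped by role) in each of 12 brains (columns, littermates side by side) relative to the mean of that gene, in log2. The wildtype brains of litters 1 and 6 are high for nearly all members, and the wildtype brain of litter 4 is low for all but 2 of them.

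The licensing genes had a median r of 0.875 among themselves and of 0.840 with the DNA synthesis genes, whereas they had 0.278 with the G2/M regulators, which had 0.589 among themselves. After centring, these 4 values were 0.794, 0.595, -0.12 and 0.395, so that pairs within each block stayed positive on balance and those between the blocks did not. Checkpoint and spindle genes had 0.670 between the 2 roles and 0.554 and 0.488 with licensing. After centring, these 3 values were 0.434, 0.154 and 0.0101.

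Rrm1 and Top2a were the closest pair, with a Pearson r of 0.984 and a Spearman rho of 0.944 over 12 arrays, and r was 0.970 without the 2 arrays farthest from the median of Rrm1. Bub1 and Mad2l1 had 0.965 and 0.958, with 0.938 on leaving out such arrays. Mcm5 and Ccnd1 had 0.948 and 0.986, with 0.911. These pairs were chosen after their values had been seen, from among the highest of the 595, so that no test was made. By contrast, Plk1 had a median r of 0.0232 with the other members and Ccnf of 0.132, although Ccnf and Plk1 had 0.823 with each other (rho 0.811, and 0.680 without the 2 farthest arrays, both KIS-ko). Ccnf also had 0.822 with Cdc20. Plk1 and Ccne1 gave the lowest r, at -0.60. E2f1, Birc5, Aurka and Kif20a had medians of 0.154, 0.219, 0.180 and 0.184.

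**Figure D5:**
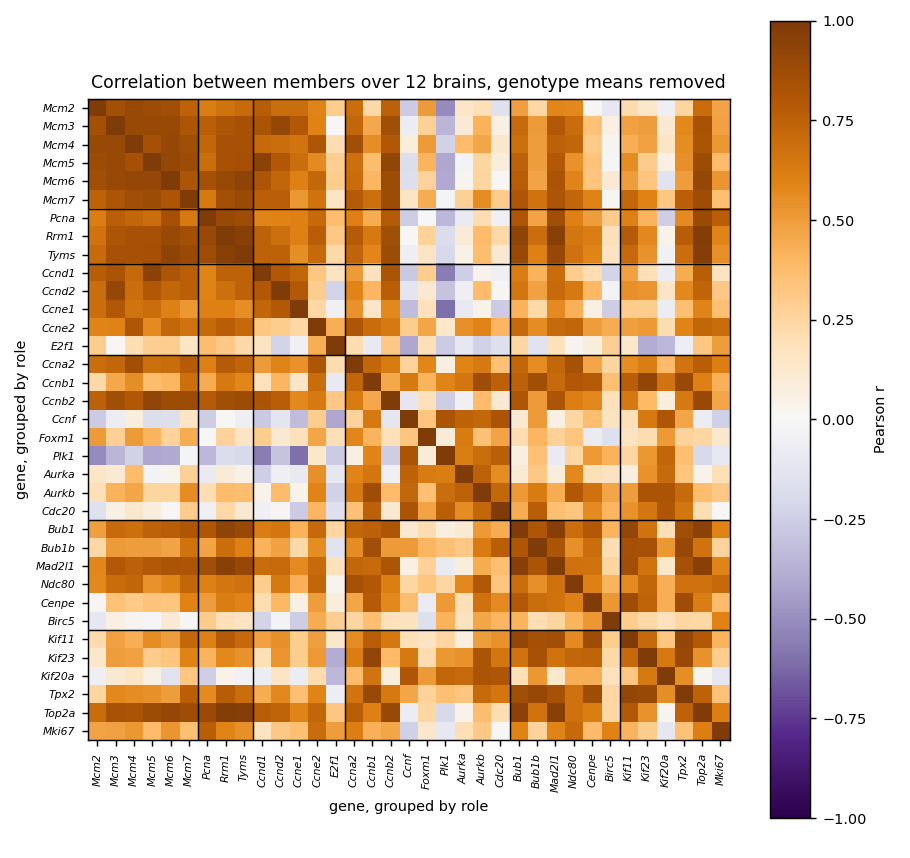
Pearson r between each pair of 35 cell cycle genes over 12 brains after removal of genotype means, with genes grouped by role on both axes and the color giving r. The dark block at the upper left holds licensing and DNA synthesis genes, and the pale or violet bands belong to Ccnf, Plk1, E2f1 and Kif20a.

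The genes outside these lists whose values followed the mean of the members most closely over the 12 arrays were A130010J15Rik, Thumpd3, Gmfb, Zfp870, Plod2, Eif2a, Acot13, Drg1, Blmh and Aga, with r from 0.955 to 0.977. With arrays centred on their medians, r of these genes ran from 0.749 (Gmfb) to 0.937 (Aga). The other r values of this paragraph are without centring, so that they include the overall level of the arrays. The other cell cycle genes had a median r of 0.662 with the member mean and 1 of 111 was among the 100 genes with the highest r, where the median of 17244 genes outside the members was 0.387. Lists of cell type markers had medians of 0.582 (progenitors and radial glia, 10 genes), 0.164 (granule cell precursors, 7), 0.607 (neurons, 9), 0.689 (endothelium, 6), 0.619 (meninges and choroid plexus, 6), 0.339 (microglia, 6) and 0.321 (oligodendrocyte lineage, 8). The 7 erythroid markers reported here had r from -0.75 to 0.452. The medians of the neuron, endothelium and meninges and choroid plexus lists were above that of the progenitor list.

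Between litters, the limma F test put 6 members at an unadjusted p under 0.05, namely Ccnd1 (0.00783), Mcm2, Tyms, Ccnb2, Mcm3 and Ccnd2, against 11.3% of all genes. After adjustment, 0 members and 0.0% of all genes passed (lowest adjusted p of a member 0.257, limma). Values of Ccnd1 were 10.44 and 10.54 in the wildtype and KIS-ko brains of litter 1 and 9.98 and 10.10 in those of litter 5. Both littermates thus lay high in litter 1 and low in litter 5.

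Other genes of the cell cycle were read from a list of 116 genes, of which 111 were measured, 6 of them (the Orc genes) under older symbols. In KIS-ko brains 100 of the 111 had a lower mean, with a median of -0.08, 19 were lower at an unadjusted p under 0.05 and 0 higher, and 0 passed the adjusted threshold. Of all genes tested, 69.8% had a lower mean, 4.34% were called lower and 1.82% higher at that unadjusted threshold. The 19 were 7 of 38 genes of origins and forks, 1 of 28 cyclin-dependent kinases, inhibitors and E2F partners, and 11 of 45 mitosis genes. By the methods' measure, 26 were at least 6% lower and 2 at least 6% higher (Cdkn1c and Spc24), against 8.84% and 17.5% of all genes. The count of 19 became 53 without litter 4, where 19.4% of all genes were called lower. It was 7 without litter 2, 11 with centred arrays and 10 with the median over probesets. In these fits 2.32%, 1.85% and 4% of all genes were called lower.

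Rpa3, a subunit of the single-strand binding protein RPA, had a difference of -0.28 ± 0.08, and its partner Rpa2 of -0.11 ± 0.05. Gins3, of the GINS helicase complex, had -0.21 ± 0.06 and was lower in 6 of 6 litters. The origin recognition subunits Orc5l and Orc6l had -0.20 and -0.14, the kinase Cdc7, which fires origins, -0.15, and the flap nuclease Fen1 -0.17. Lin9, of the MuvB complex that binds CHR elements, had -0.17. Each of these 8 had an unadjusted limma p under 0.05 and an adjusted p of 0.685.

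Among the mitosis genes, Nuf2, the partner of Ndc80 at the kinetochore, had -0.24 ± 0.06 and was lower in 6 of 6 litters. Its gene values were 7.88, 8.06 and 8.20 (lowest, median and highest) in wildtype and 7.55, 7.83 and 7.99 in KIS-ko brains, which overlap. Hmmr, a spindle protein, had -0.25 ± 0.08, and the centromere protectors Sgol1 and Sgol2 had -0.18 and -0.17. The kinesins Kif18a, Kif20b and Kif22 had -0.19, -0.13 and -0.16, the centromere proteins Cenph and Cenpi -0.13 and -0.17, the cytokinesis factor Ect2 -0.17 and the mitotic kinase Pbk -0.13. Kif20b and Cenpi were dim, with mean gene values of 7.07 and 7.15 in wildtype and 6.94 and 6.98 in KIS-ko brains. Mki67, the member with the lowest means, had 7.45 and 7.32. Cdkn1b, which encodes p27, a CDK inhibitor and described substrate of KIS, had -0.03 ± 0.06 (adjusted p = 0.818 in limma), and its sign turned after centring (0.02).

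Markers of the cell types in the brain were read beside these differences. Among all genes tested, 69.8% had a lower mean (median -0.04), 4.34% were called lower and 1.82% higher at an unadjusted p under 0.05. The shares lower in the progenitor and granule precursor lists, 70.0% and 71.4%, were near that of all genes. Of 10 progenitor and radial glia markers, 7 were lower, with a median of -0.05 and 0 called at an unadjusted p under 0.05, and the sum of their signals was 26314 to 29556 in wildtype and 25879 to 28144 in KIS-ko brains. Nes, Pax6 and Neurog2 did not exceed 713 in mean signal. Of 7 granule precursor markers, 5 were lower (median -0.03), with sums of 8558 to 9407 and 8024 to 9793, and Atoh1, Gli1 and Pax2 were not above that level. Of 9 neuron markers, 8 were lower (median -0.03), with sums of 54139 to 58522 and 53274 to 57048. Medians of the oligodendrocyte, endothelium, microglia and meninges lists were -0.05, -0.05, -0.02 and -0.04, with 0 genes called. The erythroid markers lay on the other side of 0, with 6 of the 7 reported here higher in KIS-ko brains, a median of 0.03 and 1 called higher at an unadjusted p under 0.05 (Hbb-bh1, an embryonic globin, named after its values had been seen). Of these 7, Hba-a1 and Hbb-b1 exceeded a mean signal of 713, and Hbb-bh1 did not. The part of these cell types in the result was not tested.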

How the data were processed

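Total RNA of 12 newborn brains (6 wildtype and 6 KIS-ko littermate pairs by litter, per the labels) was measured on 1 Affymetrix Mouse Exon 1.0 ST array per brain. The authors quantile-normalized the arrays at the exon level in the Affymetrix Expression Console and deposited PLIER probeset intensity values on a linear scale. The genome build of the table was not given in the sources used here.

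Main probesets with a symbol were used, except those whose relative standard deviation within a genotype exceeded 0.4, the limit of the methods. A gene was the mean over probesets of log2(signal + 16). Genes (17279) and probesets (205469) were compared between genotypes by limma (version 3.58.1, R 4.3.3), with the litter as a block, Benjamini-Hochberg adjustment and a threshold of 0.05. Fits left 5 residual degrees of freedom per gene. The scripts were tested on simulated data. Other steps used Python 3.11.15 with pandas 2.3.3, numpy 2.4.6 and matplotlib 3.10.9. Differences in each litter were given for members with an unadjusted p under 0.05 or a change of at least 6% by the methods' measure. They were also given for Mki67, Top2a, Ccnf and Ccnd1. Uhmk1, Cdkn1b, other cell cycle genes with an unadjusted p under 0.05 and the 10 genes most like the member mean were named more briefly. Mcm6 and Tyms, named outside this rule as examples of their roles, the pairs of genes, the genes whose promoters are printed and the comparison by cross-hybridization type were chosen after the values had been seen.

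Members and lists were chosen with earlier results of these data known. One erythroid marker is not reported here. Pairing comes from the litter in the labels. After removal of the genotype means, littermates correlated over genes with r from -0.114 to 0.473, above 0.1 in 3 of 6 litters. The number of arrays and the signal over background limit the precision. Promoter sequences are of RefSeq (GRCm38.p6), and none of the table's positions was used with them. Alternatives were pseudocounts of 1 and 64, other filters, scalings and summaries, type 1 probesets, no litter block, moderation with trend and robust, each litter left out and, added after the data were seen, probesets on the main chromosome of each gene.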

Additional observations from a re-analysis of the deposited data

Results flagged for a closer look

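Among 126 groups of 6 brains (63 named genes in 2 genotypes), 3 held a brain far from the others by Dixon's criterion, fewer than the 1 in 20 that chance gives. Mki67 in the wildtype brain of litter 4 had a gene value of 7.06, and the nearest of the other wildtype brains had 7.43. Cenph in the same brain had 7.10, and the nearest had 7.30. Orc5l in the wildtype brain of litter 5 had 8.68, and the nearest had 9.08.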

How the results depend on the processing

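The counts of called members depended on the litters. With the pairing by litter ignored (no block), 5 members were called at an unadjusted p under 0.05 in place of 4, and leaving the block out moved no other count by over 1.5 times. With each litter left out in turn, the called members numbered 1 to 18 (while 1.96% to 19.4% of all genes were called lower), the other cell cycle genes 7 to 53, members with a litter effect 2 to 12 (0 after adjustment), those changed by at least 6% up to 19, probesets 24 to 158 (51 with all litters) and the median r of the members 0.420 to 0.601. The highest of each of these counts came without litter 4, as did the lowest median r. For the litter effect, the 6% change and the probesets, shares of all genes or probesets in the same fits are not given. Those ranges therefore do not set the members apart from genes at large. Centring gave 11 other cell cycle genes (1.85% of all genes were called lower), 4 members changed by at least 6% and a median r of 0.186. Quantile normalization gave 2 members changed by at least 6% and a median r of 0.218. The median over probesets gave 10 other cell cycle genes (4% of all genes were called lower) and a median r of 0.273, and differences within litters gave 0.663. The difference of Ccnd1 turned to 0.055 and 0.038 after centring and quantile normalization and ran from -0.024 to 0.046 over the litters left out, and that of Cdkn1b turned to 0.023 and 0.0015. Of the 35 members, 23 kept their sign under every alternative. The other 12 were Birc5, Bub1b, Ccna2, Ccnd1, Ccne1, E2f1, Foxm1, Mcm3, Mcm5, Mcm7, Pcna and Tyms, which turned in 31 fits in all. Differences of single members shrank by over 1.5 times or turned in 29 members after centring, 26 after quantile normalization, 13 with the median over probesets and 20 without litter 6, and grew by over 1.5 times in 20 members without litter 4. No member or other named gene other than Uhmk1 passed the adjusted threshold under any alternative, so that the adjusted calls say nothing about the stability of the others. The cause was not tested. Many exons were dim, which limits the single probesets.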
